A study of Mus musculus with 6 samples.

Results

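Cholesterol and fatty acid synthesis genes were described in C2C12 cells, mouse myoblasts that become multinucleate myotubes once serum is lowered, grown with or without exosomes from fetal bovine serum (FBS). The members are 32 genes given by symbol and found as rows of the expression table, which has 20950 entries. They form a sterol group of 21 genes (18 enzymes from acetoacetyl-CoA thiolase to the last reductases, with Insig1, Stard4 and Srebf2) and a fatty acid group of 11 genes. All 32 passed the limit of a mean of 1 FPKM (reads scaled by transcript length and library depth) over the libraries, as did 10729 genes in all. FPKM is divided by transcript length, so levels of different genes can be set side by side, but only roughly where genes share exon bases or sequence. Changes are differences of log2(FPKM + 1).

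The study asked whether exosomes of the serum alter differentiation. The data used here have 5 conditions and 6 libraries of mRNA, all from the same cell line with no genetic change. The paper also lists 10% exosome-depleted FBS, which is not among these libraries. The 10% FBS library is the growth control. The other cells were switched at partial confluence to low serum, either 2% HS (horse serum) or 0.2% FBS, and each medium was used without exosomes (1 library each) and with them. 2% HS + exosome has 1 library and 0.2% FBS + exosome has 2, called replicates 1 and 2. The exosomes were a fraction precipitated from FBS with commercial kits and added in the amount that 10% FBS holds, so other precipitated serum components may be in it. No source says whether the libraries came from separate cultures, so p-values measure only the spread between these libraries, which may be technical.

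Sterols are made from acetyl-CoA through mevalonate, isoprenoid units and squalene, and lanosterol is then trimmed and reduced to cholesterol. Fatty acids are made from the same acetyl-CoA by carboxylation, chain building, elongation and desaturation. The transcription factors encoded by Srebf2 and Srebf1 serve mainly the sterol and the fatty acid branch, respectively. Both are held in the endoplasmic reticulum by the Insig proteins when sterols are plentiful and are carried by Scap to the Golgi for cleavage when sterols are scarce. Their sites in promoters, the sterol regulatory element (SRE) and some E-boxes, commonly lie near sites of NF-Y (CCAAT) and Sp1 (the GC box). In muscle cells these genes supply membrane for growth and fusion.

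Promoters of some genes that the comparisons turn on are shown first, so that members low together can be compared by their letters. RefSeq windows on GRCm38.p6, the same assembly as the mm10 build of the files, were matched for 17 of the 21 sterol genes and 8 of the 11 fatty acid genes. Fdps, Fdft1, Sqle, Stard4, Scd1, Scd2 and Fads1 were not matched. A window covers 250 bases before and 50 after an annotated start, and some genes have several. The starts in RefSeq and in GENCODE, which gave the gene positions used here, differ for some genes, so the sequences below are cut, within the 250 bases before the RefSeq start, to the longest stretch outside the GENCODE span of the gene and outside the UTRs and coding exons of any gene, 5′ to 3′ on the strand of the gene. Capitals mark CCAAT on either strand (ATTGG on the other) and the SRE motif TCACNCCAC. Idi1, Cyp51, Tm7sf2 and Msmo1 were below −1 with exosomes in both media and had windows, but are not shown. Of the genes shown, Hmgcs1, Lss and Nsdhl were below −1 with exosomes in both media, and Ebp in 0.2% FBS alone. Their stretches lie at chr13:119690101-119690350 (plus strand), chr10:76531355-76531587 (plus), chrX:72918412-72918520 (plus) and chrX:8193513-8193762 (minus).
Hmgcs1: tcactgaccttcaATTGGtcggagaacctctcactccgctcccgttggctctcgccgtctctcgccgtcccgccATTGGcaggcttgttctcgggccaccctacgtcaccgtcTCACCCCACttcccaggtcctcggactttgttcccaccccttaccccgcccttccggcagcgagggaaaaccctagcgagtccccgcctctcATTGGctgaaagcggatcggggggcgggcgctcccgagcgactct
Lss: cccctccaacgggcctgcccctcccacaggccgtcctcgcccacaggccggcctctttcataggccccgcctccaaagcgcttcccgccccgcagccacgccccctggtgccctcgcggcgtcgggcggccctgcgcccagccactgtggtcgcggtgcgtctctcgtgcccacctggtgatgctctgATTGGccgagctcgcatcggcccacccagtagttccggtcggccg
Nsdhl: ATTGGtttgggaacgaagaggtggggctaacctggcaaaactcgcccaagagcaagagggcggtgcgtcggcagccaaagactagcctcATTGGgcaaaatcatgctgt
Ebp: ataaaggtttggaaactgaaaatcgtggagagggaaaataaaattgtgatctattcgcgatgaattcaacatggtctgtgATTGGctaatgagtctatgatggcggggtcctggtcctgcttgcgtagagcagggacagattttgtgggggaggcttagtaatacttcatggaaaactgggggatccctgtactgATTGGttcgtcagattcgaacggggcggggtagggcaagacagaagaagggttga

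Srebf2, the regulator, and Fasn and Elovl6, fatty acid genes whose mean was not lower with exosomes in 0.2% FBS as deposited, are shown for contrast. In 2% HS these genes changed by −0.23, −0.74 and −0.12, in that order. Their stretches lie at chr15:82147019-82147180 (plus strand), chr11:120824548-120824797 (minus) and chr3:129532136-129532354 (plus).
Srebf2: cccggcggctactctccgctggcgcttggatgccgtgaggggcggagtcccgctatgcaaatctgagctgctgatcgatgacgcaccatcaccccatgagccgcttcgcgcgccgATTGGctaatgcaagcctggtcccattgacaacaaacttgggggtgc
Fasn: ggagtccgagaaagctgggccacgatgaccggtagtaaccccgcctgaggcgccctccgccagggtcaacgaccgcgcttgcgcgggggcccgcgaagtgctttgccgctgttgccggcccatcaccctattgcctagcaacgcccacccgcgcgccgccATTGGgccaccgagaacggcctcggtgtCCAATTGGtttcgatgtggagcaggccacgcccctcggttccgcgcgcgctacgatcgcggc
Elovl6: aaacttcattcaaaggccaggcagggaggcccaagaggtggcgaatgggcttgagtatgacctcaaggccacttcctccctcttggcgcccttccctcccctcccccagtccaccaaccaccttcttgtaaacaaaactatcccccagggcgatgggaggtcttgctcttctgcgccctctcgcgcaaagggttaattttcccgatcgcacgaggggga

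In the windows of 300 bases, CCAAT was present for 16 of the 17 matched sterol genes (34 sites, median position −57.5 from the start, the exception being Acat2) and for 5 of the 8 matched fatty acid genes (8 sites). Of all 27025 genes in the table of promoters, 41.058% had it, and 43.389% of the expressed genes that matched. The E-box CACGTG, a palindrome, was in windows of 4 sterol genes (Hsd17b7, Sc5d, Dhcr7 and Insig1) and of 0 fatty acid genes, against 8.093% of all genes and 12.213% of the expressed ones. TCACNCCAC, searched on both strands, was in that of Hmgcs1 alone among the members, as TCACCCCAC at −137, against 1.436% of all genes. The GC box GGGCGG or its complement CCGCCC was in windows of 16 sterol and 5 fatty acid genes, against 38.202% of all genes and 71.098% of the expressed ones. No site of 1 motif overlapped a site of another. Elovl6 and Acaca held none of the 4 motifs in their windows, and Fads2 held a GC box only. The only window of Acaca (chr11:84195188-84195487) lies inside its GENCODE span (chr11:84129672-84401651). So do the windows that gave CCAAT for Me1 in the fatty acid group and for Dhcr7 and Tm7sf2 in the sterol group. The counts of both groups thus rest partly on starts inside a gene. A match only says that the letters are there, and absence says nothing about binding.

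**Figure D1:**
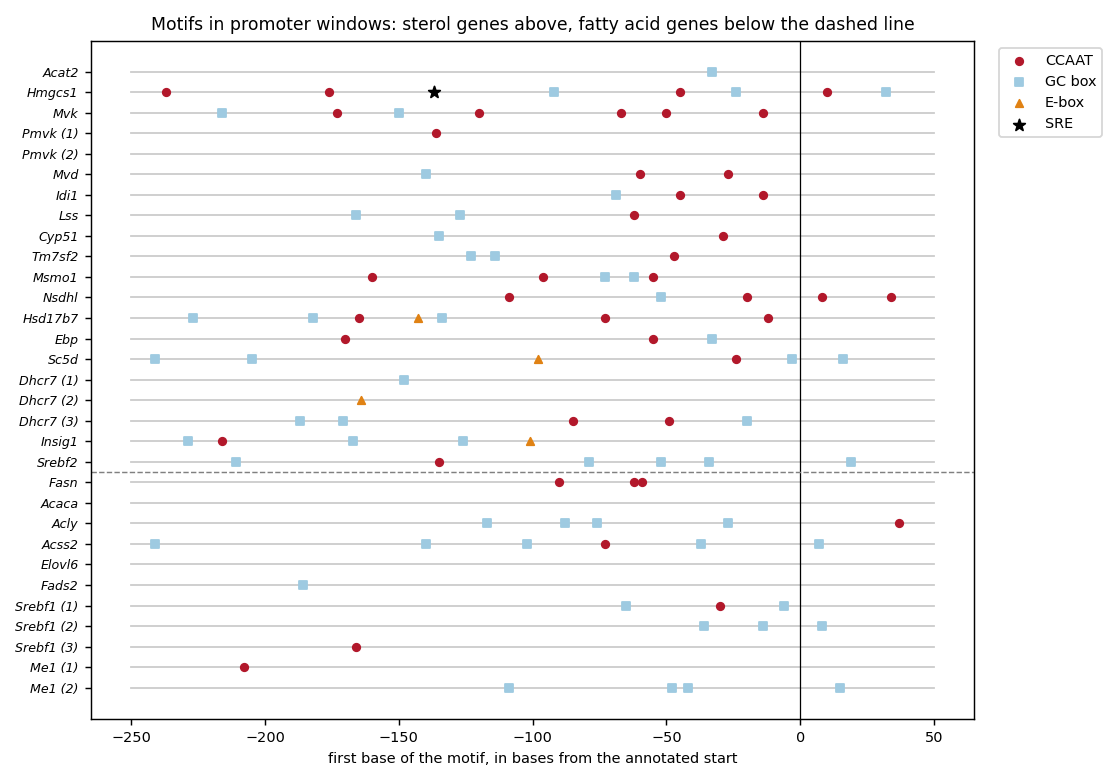
Positions of 4 motifs in the promoter windows of the matched members, in bases from the annotated start (vertical line), with 1 row per window; numbers in brackets are alternative starts of a gene. CCAAT (red circles) appears for 16 of 17 sterol genes and for 5 of 8 fatty acid genes, while the SRE motif (star) appears in Hmgcs1 alone.

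The libraries held an estimated 33700000 to 39400000 reads, read from the spacing of low FPKM values since the table has no counts, and the member with the fewest reads in any library had about 229 (Tm7sf2 in 2% HS + exosome). Without counts, no interval for counting error was computed. Myogenic markers (Des, Myod1, Myf5, Myog, Cdh15, Chrna1) were all expressed and summed to between 1360 and 2300 FPKM. Adipocyte markers summed to between 1.27 and 1.62 FPKM, most of it Lep, with Cfd and Cidec at 0 in every library, and liver and serum-borne transcripts to at most 0.106 FPKM, with Alb and Fgb at 0. Leukocyte markers summed to at most 2.1 FPKM, nearly all Cd68. In bulk RNA, fewer cells of a type and less RNA per cell cannot be told apart.

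With exosomes in 0.2% FBS, sterol genes were lower, while fatty acid genes lay on both sides of their level without exosomes, from −0.84 for Scd1 to 0.76 for Elovl6. Of the 21 sterol genes, 20 were lower in both exosome libraries than in 0.2% FBS, all but Srebf2. Of the 11 fatty acid genes, 6 were (Acaca, Acly, Acss2, Scd1, Scd2 and Me1), against 27.5% of all 10729 genes. After each library was scaled to the same 75th percentile, 20 sterol and 8 fatty acid genes were lower in both libraries, against 40.7% of all genes. The median change was −0.92 over the sterol genes and −0.05 over the fatty acid genes (−0.19 after the scaling), beside 0.14 over all genes. Of the 21 sterol genes 9 were below −1, namely Hmgcs1, Idi1, Fdps, Lss, Cyp51, Tm7sf2, Msmo1, Nsdhl and Ebp, against 0 of 11 fatty acid genes and 2.25% of all genes. Replicate 2 lay further from the control than replicate 1 for most of them. It was lower than replicate 1 for 20 of 21 sterol genes, all but Mvk, and for 36.4% of all genes, and with replicate 1 alone 3 sterol genes were below −1 (1.71% of all genes), with replicate 2 alone 13 (2.84%).

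**Figure D2:**
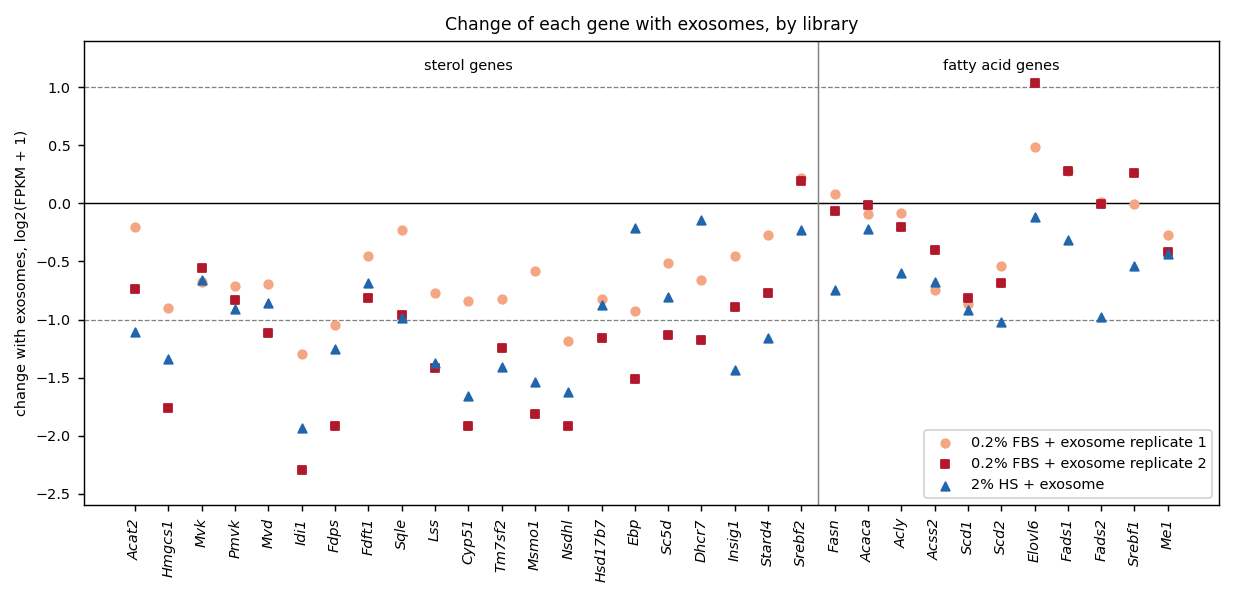
Change of each of the 32 genes with exosomes (log2(FPKM + 1), vertical axis) in each exosome library against the control library of its medium; the dashed lines mark 1 and −1. Of the 21 sterol genes on the left, 20 lie below 0 in all 3 libraries, all but Srebf2, while Elovl6 and Fads1 on the right lie above 0 in both 0.2% FBS + exosome libraries and below it in 2% HS.

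A limma fit with 1 mean per condition over all 6 libraries took its spread from replicates 1 and 2 alone (1 residual degree of freedom). That spread was applied to the single libraries. As in every limma fit here, the spread of each gene was drawn toward the trend of spread with level over all genes. The SE and p of a gene thus rest in large part on the spread of other genes. In this fit, 13 of 21 sterol and 1 of 11 fatty acid genes (Scd1) fell within 0.2% FBS at an adjusted p under 0.05. The share of all genes called lower was 4.32%. Acat2, Fdft1, Sqle, Msmo1, Sc5d, Insig1, Stard4 and Srebf2 did not pass. The calls rest on the filter for low values. Without it, limma called 0 of 16447 genes, with 3 sterol and 2 fatty acid genes at an unadjusted p under 0.05, against 19% of all genes, and the smallest adjusted p of a member was 0.244.

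Among the enzymes that lead from acetyl-CoA to farnesyl diphosphate, Idi1 had the most negative change in 0.2% FBS. It encodes the isomerase that interconverts both isoprenoid building blocks and lies on mm10 at chr13:8885501-8892451. It was at 60.0 FPKM in 0.2% FBS, at 23.9 and 11.4 FPKM in replicates 1 and 2 with exosomes, at 38.0 FPKM in 2% HS, at 9.23 FPKM in 2% HS + exosome and at 21.5 FPKM in 10% FBS. All 3 exosome libraries were thus below their control, and replicate 2 and 2% HS + exosome were also below 10% FBS. It fell by 1.79 on the log2 scale in 0.2% FBS (SD 0.71, n = 2; limma SE 0.34, adjusted p = 0.0184) and was lower by −1.93 in 2% HS, where it ranked 1 of the 10729 genes from the bottom.

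Fdps, which makes farnesyl diphosphate, the branch point to sterols and prenyl groups, was the sterol enzyme with the highest level. It was at 254 FPKM in 0.2% FBS, 122 and 66.5 FPKM with exosomes, 149 FPKM in 2% HS, 62.2 FPKM in 2% HS + exosome and 93.4 FPKM in 10% FBS. Its 6 libraries fell in the same order as those of Idi1. The fall in 0.2% FBS was −1.48 (SD 0.61, n = 2; limma adjusted p = 0.0268), and the difference in 2% HS was −1.25. Hmgcs1, the cytosolic synthase that makes the substrate of mevalonate formation, was at 105 FPKM in 0.2% FBS, 55.8 and 30.3 FPKM with exosomes, 56.0 FPKM in 2% HS, 21.5 FPKM in 2% HS + exosome and 47.1 FPKM in 10% FBS. It fell by 1.33 in 0.2% FBS (SD 0.61; limma adjusted p = 0.0301) and differed by −1.34 in 2% HS. The exons of Fdps share 26.7% of their bases with an annotated gene model on the same strand (Gm43738), and those of Hmgcs1 share 12.1% with one on the opposite strand, so some reads may be split between models.

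The kinases and the decarboxylase between mevalonate and the isoprenoid units moved less. Mvk, the mevalonate kinase, was at 13.8 FPKM in 0.2% FBS, against 8.26 and 9.05 FPKM with exosomes, a fall of −0.62 (limma adjusted p = 0.0431), and went from 9.40 FPKM in 2% HS to 5.59 with exosomes (−0.66). It was the sterol gene for which replicate 2 was not the lower library. Pmvk, which adds the next phosphate, fell by 0.77 in 0.2% FBS and differed by −0.91 in 2% HS. Mvd, the decarboxylase, fell by 0.90 (adjusted p = 0.027) and differed by −0.86. Acat2, the cytosolic thiolase that joins acetyl-CoA units, was at 20.8 FPKM in 0.2% FBS, against 18 and 12.1 FPKM with exosomes (−0.47, adjusted p = 0.191), so replicate 1 was close to the control. In 2% HS it differed by −1.11. Over these 7 early genes the median change was −0.90 in 0.2% FBS and −1.11 in 2% HS.

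The 3 genes that make and cyclise squalene had medians of −0.63 in 0.2% FBS and −0.99 in 2% HS. Fdft1, squalene synthase, was at 77.8 FPKM in 0.2% FBS, 56.7 and 43.8 FPKM with exosomes, 51.9 FPKM in 2% HS and 32.0 FPKM in 2% HS + exosome (−0.63, adjusted p = 0.0734, and −0.68). Its exons share 18.3% of their bases with Ctsb on the opposite strand, a gene with a mean of 408 FPKM, and the strand setting of the FPKM calculation is not given in the sources used here, so its level is uncertain. Sqle, the epoxidase that oxidises squalene, was at 108 FPKM in 0.2% FBS, against 91.3 and 54.6 FPKM with exosomes, and replicate 1 was near the control again (−0.60, adjusted p = 0.187). Lss, which closes the rings to lanosterol, fell from 20.3 FPKM to 11.5 and 6.98 FPKM (−1.10, SD 0.45, adjusted p = 0.0285) and was at 12 and 4.02 FPKM in 2% HS without and with exosomes (−1.38).

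The 8 genes after lanosterol included Nsdhl, whose change in 0.2% FBS was the most negative of the members after Idi1. Nsdhl, which helps to remove methyl groups together with Msmo1 and Hsd17b7, lies on mm10 at chrX:72918557-72958514. It was at 59.9 FPKM in 0.2% FBS, 25.9 and 15.1 FPKM with exosomes, 34.2 FPKM in 2% HS, 10.4 FPKM in 2% HS + exosome and 18.4 FPKM in 10% FBS. It was below its control in all 3 exosome libraries, with a fall of −1.55 (SD 0.52, n = 2; limma SE 0.27, adjusted p = 0.0152) and a difference of −1.62 in 2% HS. Cyp51, the lanosterol demethylase, fell by 1.38 in 0.2% FBS, from 58.2 FPKM to 32.2 and 14.7 FPKM (adjusted p = 0.0434), and was at 35.4 and 10.5 FPKM in 2% HS without and with exosomes (−1.66). Msmo1, the methyl sterol oxidase, was at 114 FPKM in 0.2% FBS, against 76.1 and 31.9 FPKM with exosomes. Its libraries differed most between replicates of any member (−0.58 and −1.81, SD 0.87), and its mean of −1.20 did not pass (adjusted p = 0.0869), while 2% HS gave −1.54. Tm7sf2, a sterol reductase, fell by 1.03 from 10.9 FPKM (adjusted p = 0.0209) and differed by −1.41 in 2% HS, with 12.1% of its exon bases shared with Vps51 on the same strand. Hsd17b7 fell by 0.99 and Sc5d, the sterol desaturase, was lower by −0.82 (adjusted p = 0.0591), with −0.87 and −0.81 in 2% HS.

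Ebp, the sterol isomerase, and Dhcr7, a reductase of the last steps to cholesterol, were the sterol enzymes that followed the pattern in 0.2% FBS and hardly in 2% HS. Ebp was at 50.6 FPKM in 0.2% FBS, 26.2 and 17.1 FPKM with exosomes, 58.7 FPKM in 2% HS, 50.6 FPKM in 2% HS + exosome and 18.1 FPKM in 10% FBS. Its 2% HS + exosome library was thus level with the 0.2% FBS control. It fell by 1.22 in 0.2% FBS (SD 0.41; adjusted p = 0.0201) and differed by −0.21 in 2% HS. Dhcr7 was at 35.1 FPKM in 0.2% FBS, 21.9 and 15 FPKM with exosomes, 29.1 FPKM in 2% HS, 26.2 FPKM in 2% HS + exosome and 14.3 FPKM in 10% FBS. It fell by 0.92 (adjusted p = 0.0334) and differed by −0.15 in 2% HS. In limma the exosome effects in 0.2% FBS and 2% HS differed by −1.01 for Ebp (SE 0.36, unadjusted p = 0.0237, adjusted p = 0.189) and −0.77 for Dhcr7 (adjusted p = 0.257), so neither difference passed.

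The control and transport genes of the group divided. Insig1, an endoplasmic reticulum anchor of the SREBP system and itself a target of it, was at 63.5 FPKM in 0.2% FBS, 46.0 and 33.9 FPKM with exosomes, 39.5 FPKM in 2% HS, 13.9 FPKM in 2% HS + exosome and 32.7 FPKM in 10% FBS. It was lower in all 3 exosome libraries (−0.67 in 0.2% FBS, adjusted p = 0.0681, and −1.44 in 2% HS). Stard4, which carries cholesterol through the cytosol, had the lowest mean level of the group, with 8.52 FPKM in 0.2% FBS, 6.88 and 4.57 FPKM with exosomes, 5.26 FPKM in 2% HS and 1.80 FPKM in 2% HS + exosome (−0.52, adjusted p = 0.149, and −1.16). Srebf2 was at 105 FPKM in 0.2% FBS, 123 and 120.0 FPKM with exosomes, 87.3 FPKM in 2% HS, 74.5 FPKM in 2% HS + exosome and 108 FPKM in 10% FBS. Its changes were 0.20 (SD 0.02, n = 2; adjusted p = 0.515) and −0.23, so the mRNA of the factor did not share the direction of the enzymes in 0.2% FBS, and after scaling to the same 75th percentile its change there was 0.06. mRNA does not measure the cleaved, active protein.

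In 2% HS, where each condition has 1 library and there is no replicate check, all 21 sterol genes and all 11 fatty acid genes were lower with exosomes, against 58.7% of all genes. The median change was −1.11 over the sterol genes and −0.60 over the fatty acid genes, beside −0.04 over all genes. Of the sterol genes 11 were below −1, as was 1 fatty acid gene (Scd2, −1.02), against 0.298% of all genes, or 32 genes. Of the 10 genes with the most negative change in the library, 6 were sterol genes, and of the 100 most negative, 17 were sterol and 5 fatty acid genes. In 0.2% FBS the 100 most negative genes held 4 sterol genes. Below −1 in both media were 8 sterol genes (Hmgcs1, Idi1, Fdps, Lss, Cyp51, Tm7sf2, Msmo1 and Nsdhl) and 0 fatty acid genes, against 15 of all genes, or 0.140%. The changes in 0.2% FBS and in 2% HS share no library. Of all genes, 4 were below −1 in each of the 3 exosome libraries. They were Idi1, Fdps, Nsdhl and, outside the members and named after its values were seen, the adhesion receptor gene Gpr56.

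Lower values in all 3 exosome libraries were found for 20 of 21 sterol genes and 6 of 11 fatty acid genes, against 15.5% of all genes, and for 20 and 8 after scaling to the same 75th percentile, against 20.1%. The 5 low-serum libraries were also fitted in limma with a medium term and a single exosome term (2 residual degrees of freedom). Among 10729 genes, 0 reached an adjusted p under 0.05, and 708 did so before adjustment. Unadjusted, 20 of 21 sterol genes and 4 of 11 fatty acid genes (Acss2, Scd1, Scd2 and Me1) were lower at p under 0.05, against 3.38% of all genes. The common change was −1.58 for Nsdhl (SE 0.23) and −1.85 for Idi1 (SE 0.29), each with an adjusted p of 0.408, the smallest of any member. Srebf2 had a common change of 0.02 (SE 0.17).

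**Figure D3:**
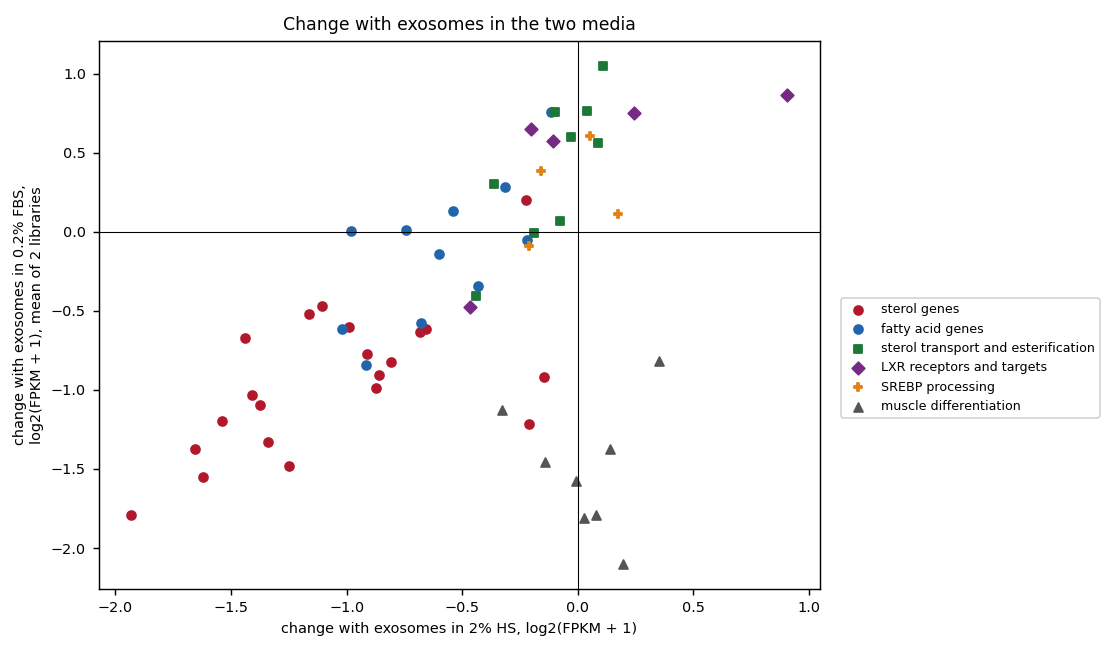
Change with exosomes in 2% HS (horizontal axis) against the change in 0.2% FBS (vertical axis, mean of 2 libraries), both in log2(FPKM + 1), for the expressed genes of 6 groups; points are genes. Most sterol genes (red) lie at the lower left, Ebp and Dhcr7 lie low at −0.21 and −0.15 in 2% HS, muscle differentiation genes (grey) have medians of −1.52 in 0.2% FBS and 0.05 in 2% HS, and transport genes (green) lie above 0 in 0.2% FBS for most members.

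Fatty acid genes were lower in the 2% HS + exosome library and mixed in 0.2% FBS. Scd1 and Scd2, desaturases that make monounsaturated fatty acids, followed the sterol genes. Scd1 was at 152 FPKM in 0.2% FBS, 82.6 and 85.9 FPKM with exosomes, 128 FPKM in 2% HS, 67.4 FPKM in 2% HS + exosome and 83.4 FPKM in 10% FBS. Both replicates were near 10% FBS, and the fall of −0.84 (SD 0.04, n = 2; limma adjusted p = 0.0287) was close in size to the difference of −0.91 in 2% HS. Scd2, the member with the highest level, was at 566 FPKM in 0.2% FBS, 388 and 352 FPKM with exosomes, 396 FPKM in 2% HS and 195 FPKM in 2% HS + exosome (−0.61, adjusted p = 0.171, and −1.02). The 2 genes are paralogs, and reads that fit both may have been assigned to either.

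Of the genes that supply and build the chain, Acss2, which activates acetate, was lower in all 3 exosome libraries (−0.58, adjusted p = 0.0775, and −0.68 in 2% HS). Acly, which makes acetyl-CoA from citrate, was at 45.1 FPKM in 0.2% FBS, 42.5 and 39.2 FPKM with exosomes (−0.14), 39.0 FPKM in 2% HS and 25.4 FPKM in 2% HS + exosome (−0.60). Me1, a source of NADPH, had changes of −0.34 and −0.43. Acaca, the carboxylase, had the flattest levels of all members, between 9.87 and 11.6 FPKM in the 6 libraries. Fasn, the synthase, was at 30.3 FPKM in 0.2% FBS, 32.1 and 29.0 FPKM with exosomes, 24.5 FPKM in 2% HS, 14.2 FPKM in 2% HS + exosome and 24.4 FPKM in 10% FBS. Its exosome libraries in 0.2% FBS lay on both sides of the control (0.01, and −0.13 after the scaling), while 2% HS gave −0.74.

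Elovl6, Fads1 and Fads2, which elongate and desaturate, and Srebf1 were not lower in the mean of 0.2% FBS + exosome as deposited, and Fads2 and Srebf1 were lower after the scaling. Elovl6, on mm10 at chr3:129532355-129638495, was at 4.71 FPKM in 0.2% FBS, 6.99 and 10.7 FPKM with exosomes, 4.92 FPKM in 2% HS, 4.46 FPKM in 2% HS + exosome and 7.76 FPKM in 10% FBS. Both replicates were above the control (0.76, SD 0.39, adjusted p = 0.0658), and 2% HS gave −0.12. Fads1 was at 36.0 FPKM in 0.2% FBS and at 44.0 FPKM in both exosome libraries (0.28, adjusted p = 0.273), against 29.0 and 23.1 FPKM in 2% HS without and with exosomes (−0.32). Fads2 was at 53.8 FPKM in 0.2% FBS, 54.5 and 53.7 FPKM with exosomes, 37.3 FPKM in 2% HS and 18.4 FPKM in 2% HS + exosome (0.01, and −0.98 in 2% HS; the value in 0.2% FBS was −0.14 after the scaling). Srebf1 was at 29.2 FPKM in 0.2% FBS, 29.1 and 35.3 FPKM with exosomes, 27.1 FPKM in 2% HS and 18.3 FPKM in 2% HS + exosome (0.13, or −0.01 after the scaling, and −0.54).

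In each exosome library the sterol median lay below the fatty acid median, although the groups overlapped. As deposited, 20 sterol genes in replicate 1, 20 in replicate 2 and 18 in 2% HS + exosome were below the fatty acid median. The sterol median minus the fatty acid median was −0.61 in replicate 1, −1.09 in replicate 2 and −0.51 in 2% HS + exosome, and −0.61, −1.07 and −0.51 after the scaling. The scaling moved the median of all genes from 0.09 and 0.18 in replicates 1 and 2 to −0.0083 and 0.02, and with it the sterol medians from −0.69 and −1.16 to −0.81 and −1.31. The difference between the exosome effects in both media had an adjusted p under 0.05 for 0 members, against 1.17% of all genes. Unadjusted, 2 sterol genes (Ebp and Insig1) and 5 fatty acid genes (Fasn, Elovl6, Fads1, Fads2 and Srebf1) were at p under 0.05, against 19.5% of all genes. The largest of these by its test was Fads2, with 0.99 (SE 0.25, unadjusted p = 0.00404, adjusted p = 0.0937).

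Without exosomes, the sterol genes were higher in low serum than in growing cells. In 0.2% FBS against 10% FBS, each with 1 library, the median difference was 1.01 over the sterol genes and 0.24 over the fatty acid genes, beside −0.09 over all genes. Of the sterol genes 11 were above 1 (Nsdhl, Cyp51, Idi1, Ebp, Fdps, Msmo1, Mvd, Dhcr7, Tm7sf2, Hmgcs1 and Lss), against 0 fatty acid genes and 1.79% of all genes. The differences ran from 1.65 for Nsdhl to −0.04 for Srebf2. In 2% HS against 10% FBS the sterol median was 0.33 and the fatty acid median 0.01, with 1 sterol gene above 1 (Ebp, 1.64), against 1.79% of all genes. Dhcr7 was next at 0.98. Higher in both low-serum controls than in 10% FBS were 18 sterol genes, all but Sqle, Stard4 and Srebf2, and 6 fatty acid genes, against 31.4% of all genes. After the scaling they were 18 and 9, against 39.1%. Between the controls, 0.2% FBS was above 2% HS for 20 sterol genes, all but Ebp, with a median of 0.60, and for 9 fatty acid genes, with a median of 0.24, against 46.3% of all genes and a median of −0.01.

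**Figure D4:**
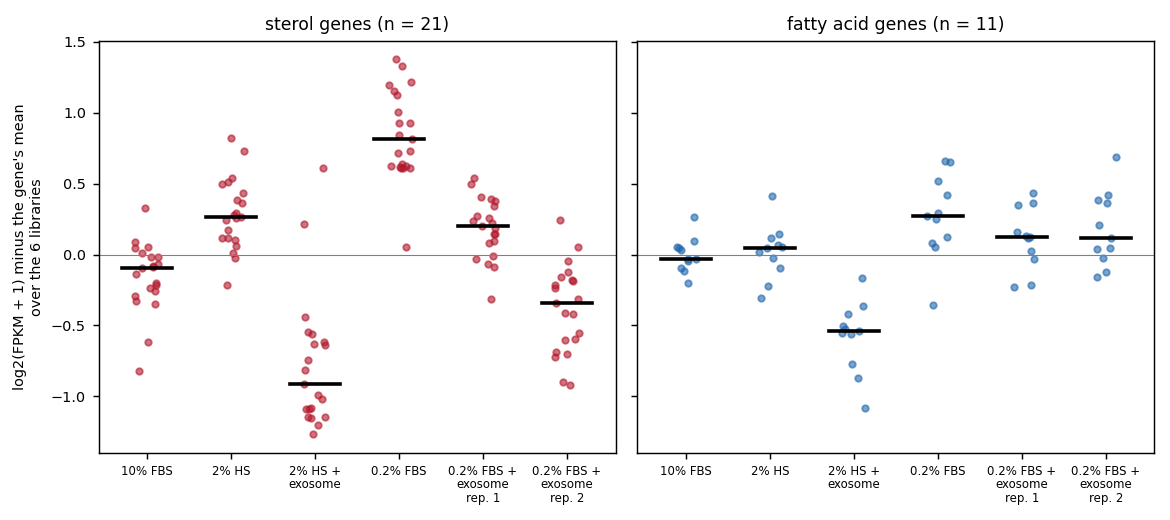
Level of each gene in each library as log2(FPKM + 1) minus the mean of that gene over the 6 libraries, sterol genes on the left and fatty acid genes on the right; points are genes and black lines medians. The sterol genes are highest in 0.2% FBS (19 of 21) and lowest in 2% HS + exosome (19 of 21), and the fatty acid genes spread less apart from the same low library.

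Across the 6 libraries, 19 of 21 sterol genes were highest in 0.2% FBS, all but Ebp and Srebf2, and 5 of 11 fatty acid genes were (Acly, Acss2, Scd1, Scd2 and Me1), against 9.27% of all genes. With scaled libraries 19 sterol and 8 fatty acid genes were, beside a share of 13.4% over all genes. The lowest library was 2% HS + exosome for 19 sterol genes, all but Ebp and Dhcr7, and for all 11 fatty acid genes, against 28.0% of all genes. After the scaling this held for 17 and 11, against 19.6% of all genes. The sterol genes in 0.2% FBS + exosome were on average near their level in growing cells. The median difference of 0.2% FBS + exosome from 10% FBS was 0.10 over the sterol genes, but the replicates lay on opposite sides, with 0.39 in replicate 1 (20 of 21 sterol genes higher, against 50.5% of all genes) and −0.26 in replicate 2 (5 of 21 higher, against 60.6%). For the fatty acid genes it was 0.08. The exosome changes and the serum differences share the 0.2% FBS and 2% HS libraries, so a high value there enters both with opposite sign, and neither is independent support for the other.

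**Figure D5:**
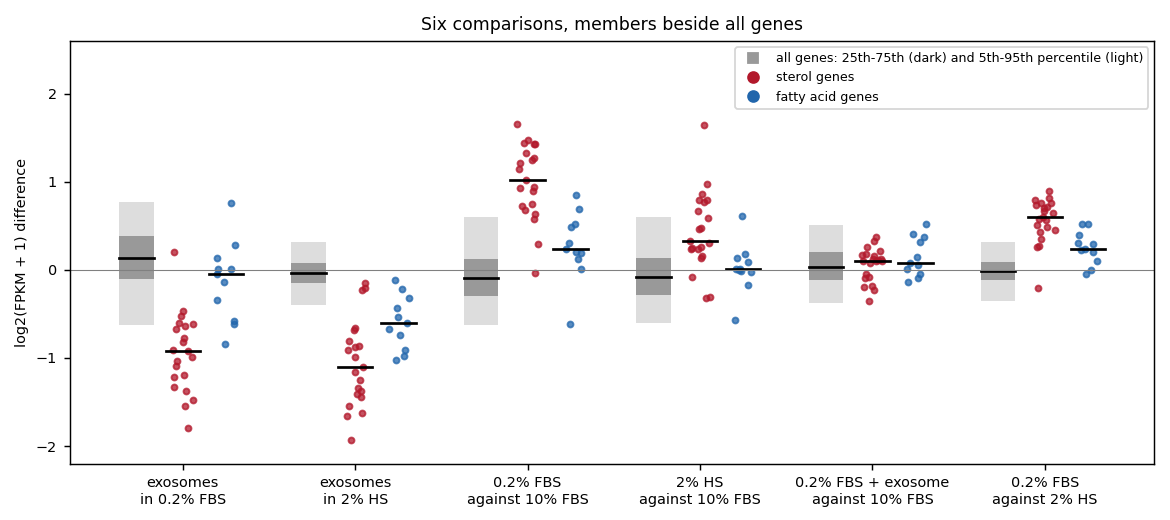
Differences in log2(FPKM + 1) for 6 comparisons, with sterol genes in red, fatty acid genes in blue, black lines for medians and grey bars for the 25th to 75th and 5th to 95th percentiles of all 10729 genes. The sterol median is −0.92 and −1.11 with exosomes in 0.2% FBS and 2% HS, 1.01 for 0.2% FBS against 10% FBS, and 0.10 for 0.2% FBS + exosome against 10% FBS.

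Genes around the pathway that are not members were counted from lists, with changes as deposited. The scaling was not applied to them. Medians over all genes were 0.14 in 0.2% FBS and −0.04 in 2% HS. Of 5 genes of other mevalonate branches, which serve prenyl, dolichol and ubiquinone synthesis, 0 were past 1 or −1. Their median change was −0.07 in 0.2% FBS and −0.02 in 2% HS. Of all genes, 2.25% were below −1 and 1.8% above 1 in 0.2% FBS, and 0.298% and 0.354% in 2% HS. A count of 0 in so short a list is near these shares. Of the 4 SREBP processing genes (Scap, Insig2, Mbtps1 and Mbtps2), 0 were past 1 or −1, again near these shares, and the medians were 0.25 and −0.05. Their changes ran from −0.09 to 0.61 in 0.2% FBS and from −0.21 to 0.18 in 2% HS, with 0.38 and −0.16 for Scap and −0.09 and −0.21 for Insig2.

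The 9 sterol transport and esterification genes had medians of 0.56 in 0.2% FBS and −0.08 in 2% HS, as deposited. Over all genes these were 0.14 and −0.04. Changes in the list ran from −0.41 to 1.05 and from −0.44 to 0.11. Soat1, which esterifies cholesterol for storage, was the member of that list above 1 in 0.2% FBS, against 1.8% of all genes. It was at 18.2 FPKM in 0.2% FBS, 44.9 and 33.4 FPKM with exosomes, 22.8 FPKM in 2% HS, 24.7 FPKM in 2% HS + exosome and 33.3 FPKM in 10% FBS (1.05, SD 0.29, n = 2, and 0.11). Both replicates were at or above the growing cells. Npc1, which exports cholesterol from lysosomes, was at 11.7 FPKM in 0.2% FBS and 19.1 and 21.9 FPKM with exosomes (0.76), against −0.10 in 2% HS. Of 8 receptors and targets of the sterol-sensing LXR factors, 5 were expressed, with medians of 0.65 and −0.11. Their changes ran from −0.47 to 0.87 in 0.2% FBS and from −0.47 to 0.91 in 2% HS. Nr1h2, a receptor, had changes of 0.58 and −0.11, while Nr1h3, Abca1 and Abcg1 were below 1 FPKM in every library. The median of 13 expressed genes of fatty acid elongation, activation and esterification was 0.13 in 0.2% FBS and −0.26 in 2% HS. That of 12 genes of oxidation and uptake was −0.11 and −0.08. In either list 0 genes were past 1 or −1. Of all genes, 2.25% were below −1 and 1.8% above 1 in 0.2% FBS, and 0.298% and 0.354% in 2% HS, so these counts are near those shares.

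Muscle differentiation genes were also lower with exosomes in 0.2% FBS. Of 8 muscle differentiation genes found, 7 were below −1 in 0.2% FBS (2.25% of all genes) and all 8 lower in both replicates (27.5% of all genes, 40.7% after the scaling), with a median of −1.52. The 7 were Ckm (−1.13), Tmem8c (−1.37), Acta1 (−1.46), Myh3 (−1.58), Tnni2 (−1.79), Tnnt3 (−1.81) and Actn2 (−2.10), most of them genes of the contractile apparatus. The summed level of the 8 was 12500 FPKM in 0.2% FBS and 5370 and 3760 FPKM with exosomes. In 2% HS the median was 0.05 with 0 of the 8 genes below −1, against 0.298% of all genes. The sums were 11400 and 11100 FPKM without and with exosomes, in the library where the sterol median was −1.11. The growing library had 5180 FPKM. Replication genes had a median of −0.09 in 0.2% FBS and of −0.45 in 2% HS, where all 7 were lower, against 58.7% of all genes (51.5% after the scaling). The part of either list in the values of the sterol and fatty acid genes was not tested.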

How the data were processed

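The 6 libraries used here were sequenced by the authors from mRNA of C2C12 cells (TruSeq Stranded mRNA, 75 bp single-end). The authors trimmed the reads (cutadapt 1.9.1), mapped them to mm10 (TopHat2 2.1.0, per the submitters' processing notes) and ran Cufflinks. The authors deposited its FPKM values as 1 table. The annotation and strand setting behind the FPKM are not given in the sources used here.

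The FPKM values were used as deposited, as log2(FPKM + 1), for genes whose mean over the libraries reached 1 FPKM. This scale understates changes of low genes. Counts use the study's threshold, a log2 change above 1 or below −1. limma 3.58.1 (R 4.3.3) was used with a mean-variance trend and Benjamini-Hochberg adjustment over 10729 genes. It gave the contrasts within 0.2% FBS and between media (1 mean per condition) and the common effect (medium term, 5 libraries). The fits were also run on simulated data whose spread followed the level smoothly. That run does not show how they behave with spread particular to single genes. The 0.2% FBS + exosome value is the mean of both libraries. Depth was estimated from 446 to 507 low values per library among 2442 genes with 1 transcript. The depth chosen was the one with the largest share of them within 0.1 of a whole read, 71.5% to 74.4%. Even spacing would give 20% at a depth fixed beforehand, and more at one chosen in this way. Positions come from GENCODE vM21 and promoters from RefSeq (GRCm38.p6). Alternatives were a pseudocount of 0.1, values below 1 FPKM raised to 1, scaling to the same 75th percentile, no filter or a mean of at least 5 FPKM, leaving out either replicate and, added after seeing the data, a replicate block. All 32 members are named. Other list genes are named if past 1 or −1 in 0.2% FBS or defining for their list. The members and lists were chosen with earlier results of these data known. Some genes of the pathway are not reported here and were left out of the lists after their values were known.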

Additional observations from a re-analysis of the deposited data

Results flagged for a closer look

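For 3 members every exosome library of 0.2% FBS lay above its control while the 2% HS + exosome library lay below, so the exosome effects pointed in opposite directions in both media. For Srebf2 the exosome effects in 0.2% FBS and 2% HS differed by 0.43 (limma SE 0.30, adjusted p = 0.458). For Elovl6 the difference was 0.88 (SE 0.35, adjusted p = 0.232), and for Fads1 0.60 (SE 0.25, adjusted p = 0.239). None of the 3 differences passed an adjusted p of 0.05, and the 2% HS side of each rests on 1 library with and 1 without exosomes. With each library scaled to the same 75th percentile the directions stayed opposite for all 3, with 0.10 and 0.01 for Srebf2 in replicates 1 and 2 against −0.19 in 2% HS.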

How the results depend on the processing

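Every sterol gene lower with exosomes as deposited stayed lower under each pseudocount and scaling tried, and none of the members past 1 or −1 changed sign. In 0.2% FBS, leaving out 1 replicate gave 3 (without replicate 2) to 13 (without replicate 1) sterol genes below −1 (1.71% and 2.84% of all genes), 0 to 1 fatty acid genes above 1 (Elovl6; 1.44% and 2.91%), and fatty acid medians of −0.0855 to −0.0635, while scaling to the same 75th percentile gave −0.19. In 2% HS, the fatty acid median was −0.62 with a pseudocount of 0.1, −0.62 with values raised to 1 and −0.57 after scaling, with 2, 2 and 0 fatty acid genes below −1 (0.531%, 0.503% and 0.28% of all genes). After scaling the fatty acid median was 0.31 for 0.2% FBS against 10% FBS, 0.065 for 2% HS against 10% FBS and 0.0074 for 0.2% FBS + exosome against 10% FBS. For the last comparison, leaving out 1 replicate gave sterol medians of −0.26 to 0.39 and fatty acid medians of 0.0789 to 0.11. The count of sterol genes above 1 in 2% HS against 10% FBS was 2 with a pseudocount of 0.1, 2 with values raised to 1 and 2 after scaling (2.54%, 2.38% and 2.14% of all genes).

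In limma within 0.2% FBS, no filter on low values left 0 sterol and 0 fatty acid genes at an adjusted p under 0.05, with 3 sterol genes at an unadjusted p under 0.05 (19% of all genes), and scaling gave 2 fatty acid genes adjusted (10.7% of all genes) and 5 unadjusted (29.4%). For the difference between media, unadjusted, a pseudocount of 0.1 gave 4 sterol genes (20.1% of all genes), no filter 0 sterol and 3 fatty acid genes (13.8%), and scaling 2 fatty acid genes (17.4%). The cause of these shifts was not tested. Fasn, Fads2 and Srebf1, near 0 in 0.2% FBS, changed sign after scaling (−0.13, −0.14 and −0.01) or when a replicate was left out. No limma test without a replicate was possible within 0.2% FBS, since no residual degree of freedom remains. The labels number the low-serum libraries 1 (2% HS without and with exosomes), 2 (0.2% FBS and replicate 1) and 3 (replicate 2 alone), and nothing else pairs them. With this number as a replicate block in place of the medium term, chosen after seeing the data (2 pairs, 1 residual degree of freedom), limma's common effect had 0 members at an adjusted p under 0.05 as before, and 19 sterol and 3 fatty acid genes unadjusted, among 295 of all genes in place of 708. With 1 control library per medium, the spread between control cultures is unknown.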
